A study of Mus musculus with 20 samples.

Results

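Follicular regulatory T (Tfr) cells were described here among splenic follicular T cells of bone marrow chimeras. The cells were those to which the authors had given the cluster name Tfr, 11650 of the 28192 cells with an RNA profile, or 41.3%. The other 16542 cells carried 5 names of follicular helper T (Tfh) clusters: activated Tfh, with 11953 cells, *Sostdc1* Tfh, with 2803, central memory Tfh, with 725, effector Tfh, with 682, and interferon stimulated Tfh, with 379.

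Irradiated hosts had received C57BL/6 marrow. In 5 WT chimeras the marrow was congenic WT marrow alone, and these mice were immunized with the hapten-protein conjugate NP-OVA in alum at week 6. In 5 564Igi chimeras, which were not immunized, the WT marrow was mixed with marrow from 564Igi mice, which carry knocked-in heavy and light chains of a B cell receptor against ribonuclear complexes. The labels place the analysis of all chimeras at week 10, and the study's methods also describe a booster immunization. By their labels mice 11, 12, 13, 21 and 34 were female and mice 14, 17, 23, 24 and 36 male, so each condition held both sexes. CD4+CXCR5+PD-1+ spleen cells were sorted, and each mouse gave its own 10x gene expression and TCR libraries. Autoimmunity cannot be told apart here from the lack of immunization, nor from the normalization, which the authors ran on each condition separately. The labels name mice 11, 12, 14, 23 and 36 as WT and mice 13, 17, 21, 24 and 34 as 564Igi, and values below follow these orders.

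Tfr cells are CD4+ T cells that express the transcription factor Foxp3 of regulatory T cells and, like Tfh cells, enter the B cell follicle through the chemokine receptor CXCR5. Tfh cells help germinal center B cells through CD40 ligand and interleukin 21, and Tfr cells restrain that reaction. Many Tfr cells descend from regulatory T cells selected in the thymus on self antigen, and their T cell receptors are therefore of interest in autoimmune disease.

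The clonal identity of a T cell is its pair of CDR3 sequences, the receptor loops made at the junction of the V, D and J segments. Of 4755 clonotypes found among Tfr cells, 4 held Tfr cells of more than one mouse, and their CDR3 coding sequences are shown because the nucleotides tell separate origins apart. Each sequence runs 5′ to 3′ from the codon of the first cysteine, and capitals mark the positions at which the mice differed within a chain.

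Clonotype 1 joined TRAV4D-4 and TRAJ22 to TRBV13-1 and TRBJ2-7, and was found in 2 564Igi chimeras. Most of its cells lay outside the Tfr cluster, with 3 Tfr of 11 cells in mouse 21 and 9 Tfr of 37 cells in mouse 24.
Clonotype 1 alpha, 564Igi mouse 21: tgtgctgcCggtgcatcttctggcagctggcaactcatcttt
Clonotype 1 alpha, 564Igi mouse 24: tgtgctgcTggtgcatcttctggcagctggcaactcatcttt
Clonotype 1 beta, 564Igi mouse 21: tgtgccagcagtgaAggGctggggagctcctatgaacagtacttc
Clonotype 1 beta, 564Igi mouse 24: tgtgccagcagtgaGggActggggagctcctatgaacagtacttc

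Clonotype 2 joined TRAV6-3 and TRAJ30 to TRBV19 and TRBJ1-5, and was found in both conditions. Its cells were nearly all Tfr, with 19 of 19 in WT mouse 23, 78 of 83 in 564Igi mouse 17 and 3 of 3 in 564Igi mouse 24. The alpha sequence was the same in these 3 mice and is given once.
Clonotype 2 alpha, all 3 mice: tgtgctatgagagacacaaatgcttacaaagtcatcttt
Clonotype 2 beta, WT mouse 23: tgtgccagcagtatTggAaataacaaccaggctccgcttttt
Clonotype 2 beta, 564Igi mouse 17: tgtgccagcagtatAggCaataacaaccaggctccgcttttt
Clonotype 2 beta, 564Igi mouse 24: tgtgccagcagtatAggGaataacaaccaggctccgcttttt

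Clonotype 3 joined TRAV16 and TRAJ34 to TRBV3 and TRBJ2-3 in 2 WT chimeras, with 3 Tfr of 7 cells in mouse 23 and 4 Tfr of 5 cells in mouse 36. Clonotype 4 joined TRAV21-DV12 and TRAJ58 to TRBV3 and TRBJ2-5, with 6 Tfr of 6 cells in WT mouse 11 and the 1 cell of 564Igi mouse 13.
Clonotype 3 alpha, WT mouse 23: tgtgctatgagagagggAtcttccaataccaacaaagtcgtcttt
Clonotype 3 alpha, WT mouse 36: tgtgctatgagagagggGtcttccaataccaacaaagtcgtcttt
Clonotype 3 beta, WT mouse 23: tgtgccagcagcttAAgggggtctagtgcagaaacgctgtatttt
Clonotype 3 beta, WT mouse 36: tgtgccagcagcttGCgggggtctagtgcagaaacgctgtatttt
Clonotype 4 alpha, WT mouse 11: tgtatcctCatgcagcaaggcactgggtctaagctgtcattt
Clonotype 4 alpha, 564Igi mouse 13: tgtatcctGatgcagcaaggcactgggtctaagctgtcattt
Clonotype 4 beta, WT mouse 11: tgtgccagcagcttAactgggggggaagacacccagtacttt
Clonotype 4 beta, 564Igi mouse 13: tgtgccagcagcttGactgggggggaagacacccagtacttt

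Positions are counted from 1 at the first base. Between mice 21 and 24, clonotype 1 had C9T in the alpha and A15G and G18A in the beta chain. From WT mouse 23, the beta chain of clonotype 2 differed by T15A and A18C in mouse 17 and by T15A and A18G in mouse 24. Clonotype 3 had A18G in the alpha and A15G and A16C in the beta chain, and clonotype 4 had C9G and A15G. Clonotypes were defined by their CDR3 amino acids, so none of these substitutions could change an amino acid. Apart from the alpha chain of clonotype 2, each chain was coded by different nucleotides in different mice. The table lists 2 CDR3 entries a cell in alphabetical order, so any further chain of a cell would not be seen, and 91.8% of Tfr cells with a TCR had one alpha and one beta CDR3.

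Each mouse gave between 392 (564Igi mouse 24) and 1633 (WT mouse 36) Tfr cells with 1219754 to 6050363 UMIs, and the median Tfr cell of a mouse had 2743 to 4227 UMIs. The median depth was 3438 UMIs in WT and 3499 in 564Igi chimeras on average (two-sided exact permutation p = 0.825). The median mitochondrial share of Tfr cells was 3.37% in WT and 3.04% in 564Igi chimeras (two-sided exact permutation p = 0.0238). The mean heat shock score was higher in Tfr than in other cells in 10 of 10 mice. A cell barcode that also occurred in another library was carried by 418 Tfr cells. Mice 34 and 36, whose libraries are numbered apart from the rest in the labels, had a paired TCR for 54.1% and 42.7% of Tfr cells, against 74.3% to 89.4% in the other mice. Tfr cells made up 43.2% ± 7.53 of cells in WT chimeras (SD, n = 5) and 39.0% ± 5.21 in 564Igi chimeras (SD, n = 5), which overlapped (two-sided exact permutation p = 0.405). The difference of -4.18 percentage points was -0.887 without WT mouse 12 and -6.46 without 564Igi mouse 13 (two-sided exact permutation p = 0.833 and 0.0635).

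Expression is given as the mean over a mouse's cells of log2 of the corrected UMI count plus 1, and a transcript was found in a cell with at least 1 corrected UMI. The clusters had been made from these same values, so differences between Tfr and other cells are a description with no test. Of the 10199 genes found in at least 1% of Tfr or of other cells in at least 5 mice, 1292 (12.7%) were higher and 887 (8.70%) lower in Tfr than in other cells within every one of the 10 mice. By a mean difference above 0.2 on the log2 scale, 71 (0.696%) were higher and 50 (0.490%) lower. The median difference over all these genes was 0.00088.

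The 4 markers taken for Tfr cells did not behave alike. *Foxp3*, the lineage factor of regulatory T cells, was found in 61.8%, 53.1%, 55.4%, 56.1% and 55.8% of Tfr cells in the WT chimeras and in 62.4%, 56.7%, 54.6%, 48.5% and 56.0% in the 564Igi chimeras. In the other cells of the same mice it was found in 4.36% to 12.2%, so the ranges did not meet. *Foxp3* was found in 26.3% ± 5.41 of interferon stimulated Tfh cells (SD, n = 8 mice with at least 20 such cells) and in 4.08% to 7.20% of the remaining clusters on average. *Ikzf2*, which encodes Helios, was found in 90.4% ± 3.34 of Tfr cells and 62.6% of other cells, and *Tigit*, an inhibitory receptor, in 84.5% ± 3.27 and 59.6% (SD, n = 10). Both were also found in most activated Tfh cells, at 62.4% for *Ikzf2* and 58.4% for *Tigit*.

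*Id3* went against its use as a Tfr marker in these cells. This inhibitor of E protein transcription factors was found in 40.2% ± 8.07 of Tfr cells and in 45.1% of other cells, and its level was lower in Tfr than in other cells in 8 of 10 mice. It was found most often in central memory Tfh cells, at 78.6% ± 8.42, and least often in effector Tfh cells, at 17.9% ± 8.67. All 4 markers were found together in 16.03% ± 3.85 of Tfr cells and 1.96% ± 0.996 of other cells, while none was found in 1.42% and just 1 in 6.79% of Tfr cells. The cluster is therefore described here by its name and by *Foxp3*, *Ikzf2* and *Tigit*, without *Id3*.

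**Figure D1:**
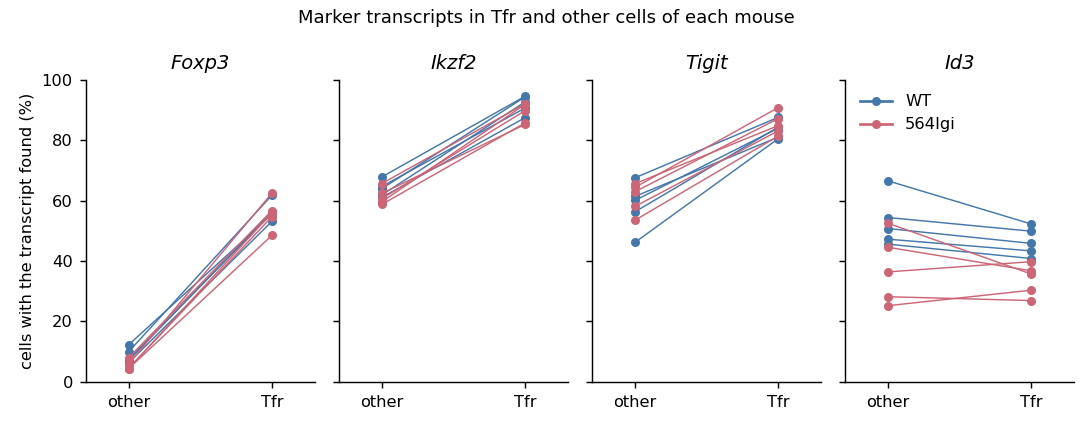
Share of cells with the transcript found (%), in the other follicular T cells and in Tfr cells of each mouse, for the 4 markers, with WT chimeras in blue and 564Igi chimeras in red and a line for each mouse. *Foxp3* rises from at most 12.2% to at least 48.5% in 10 of 10 mice, while *Id3* is lower in Tfr cells in 8 of 10.

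The 12 genes highest in Tfr cells were led by *Tnfrsf4*, *Ikzf2* and *Cd74* and held 3 receptors of the tumor necrosis factor family. *Tnfrsf4*, which encodes the costimulatory receptor OX40, had a level of 1.89 ± 0.10 in Tfr and 0.82 ± 0.11 in other cells (SD, n = 10 mice), a difference of 1.06 that ran from 0.97 to 1.19 over the mice. *Tnfrsf9* (4-1BB) was higher by 0.81 and *Tnfrsf18* (GITR) by 0.80. *Cd74*, the invariant chain that accompanies MHC class II, had a level of 1.07 ± 0.19 in Tfr and 0.17 ± 0.05 in other cells and was found in 55.3% and 12.2% of them. Its level in the interferon stimulated Tfh cells was 0.52 and at most 0.18 in the remaining clusters. *Ikzf2* was higher by 0.91, *Foxp3* by 0.78, *Tigit* by 0.72, *Ly6e*, a GPI-anchored member of the Ly6 family, by 0.72, and *Cd81*, a tetraspanin, by 0.68. The level of *Ly6e* was 3.40 in interferon stimulated Tfh cells and 3.20 in Tfr cells, which were the higher in 2 of 8 mice. *Izumo1r*, which encodes folate receptor 4, *Cd83*, and *Sdf4*, which encodes a calcium-binding protein of the Golgi, were higher by 0.60 to 0.61. *Sdf4* had the narrowest range of these 12, from 0.53 to 0.68, and *Izumo1r* the widest, from 0.21 in a WT mouse to 0.88.

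The 12 genes lowest in Tfr cells held surface molecules of helper and migrating T cells. *Ms4a4b*, a tetraspanning membrane protein of T cells, was found in 32.4% of Tfr and 76.0% of other cells, with levels of 0.52 ± 0.13 and 1.67 ± 0.19 (SD, n = 10). *Tnfsf8*, the CD30 ligand, was lower by 0.79 and *Sostdc1*, a secreted antagonist of BMP and Wnt signals, by 0.73. The *Sostdc1* difference was 0.19 in size when Tfr cells were set against activated Tfh cells alone, while those of the other 11 genes lay between 0.44 and 1.17. *Tcf7*, the transcription factor TCF-1, had a level of 0.65 in Tfr and 1.24 in other cells. *S100a6*, *Itgb1* (integrin beta 1), *Slamf6*, a receptor in contacts of T and B cells, *Klf2*, which controls genes of lymphocyte exit, *Gpm6b*, *Ptpn11* (the phosphatase SHP-2), *Thy1* and *Lgals1* (galectin-1) were lower by 0.40 to 0.51. Among all clusters, only *Ms4a4b*, *Slamf6* and *Klf2* had their lowest mean level in Tfr cells. The others had a lower mean in a smaller cluster. *Tnfsf8* stood at 0.31 in Tfr, 0.21 in central memory and 0.22 in effector Tfh cells. In central memory Tfh cells *S100a6* stood at 0.30 and *Lgals1* at 0.51 (n = 8 mice), against 1.43 and 1.06 in Tfr cells.

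**Figure D2:**
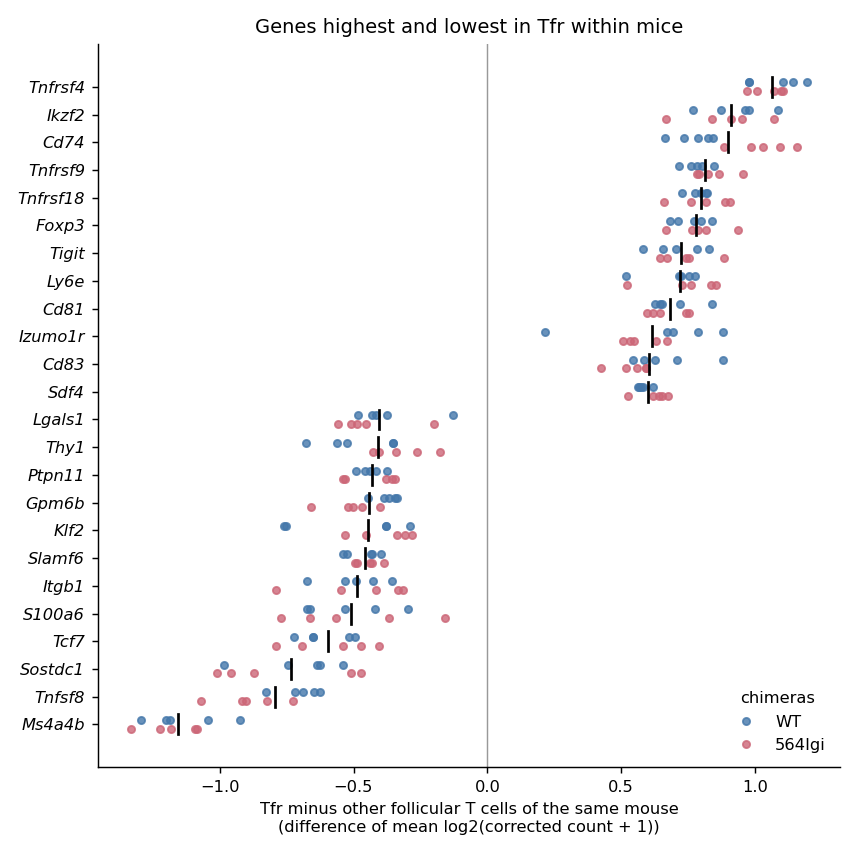
Difference between Tfr and other follicular T cells of the same mouse (log2 scale, difference of mean log2(corrected count + 1)) for the 12 highest and the 12 lowest genes. Each point is a mouse, in blue for WT and red for 564Igi, and the black line is the mean of 10 mice. No point crosses 0, as the choice of these genes requires.

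The median difference over 20 genes of regulatory T cell identity was 0.40 on the log2 scale. Of these, 19 were higher in Tfr cells in 10 of 10 mice, against 12.7% of all genes. Besides the receptors above they included *Ctla4*, which takes CD80 and CD86 from antigen-presenting cells, found in 60.1% of Tfr and 35.1% of other cells. *Il2ra*, the alpha chain of the interleukin 2 receptor, was found in 11.8% and 2.18%. The exception, named here after its value was seen, was *Nrp1* (neuropilin-1), with levels of 0.45 in Tfr and 0.47 in other cells and a higher level in Tfr cells of 5 of 10 mice.

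Of the 14 suppressive molecules past the filter, 9 were higher in Tfr cells in 10 of 10 mice, against 12.7% of all genes. *Nt5e*, the ecto-enzyme CD73 that makes adenosine, was higher by 0.13 and *Tgfb1* by 0.07. The interleukin 10 transcript *Il10* was found in 2.95% of Tfr and 2.76% of other cells and was higher in Tfr cells in 5 of 10 mice. *Lag3*, an inhibitory receptor, was higher in 3 of 10.

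Most of the genes through which Tfh cells help B cells were lower in Tfr cells. Of 10 past the filter, 8 were lower in 10 of 10 mice, against 8.70% of all genes, and none was higher in 10 of 10. The median difference was -0.21. *Cd40lg* was found in 18.2% of Tfr and 46.6% of other cells, *Il21* in 6.09% and 21.3%, *Il4* in 5.91% and 12.4%, and *Cd200* in 20.01% and 38.0%.

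The follicular programme divided, with 5 of 21 genes higher and 7 lower in 10 of 10 mice, against 12.7% and 8.70% of all genes. *Icos*, a costimulatory receptor, was higher by 0.28, *Sh2d1a*, the adaptor SAP, by 0.29 and *Batf*, a transcription factor, by 0.47. *Slamf6*, whose signals SAP carries, was lower by 0.46. The markers of the sort were close between the sets, with *Cxcr5* found in 38.4% of Tfr and 42.6% of other cells and *Pdcd1* in 74.3% and 76.3%. *Bcl6*, the lineage factor of follicular T cells, was found in 9.61% and 11.7%.

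The NF-kB and TNF receptor list was the most uniform beside that of identity. Of 16 genes 15 were higher in Tfr cells in 10 of 10 mice, against 12.7% of all genes, and the median was 0.14. *Nfkbia*, the inhibitor that NF-kB itself induces, had levels of 1.59 and 1.03, and *Nfkb2* was higher by 0.12 and *Rel* by 0.10. *Nfkb1*, which encodes p105, was the exception, lower by 0.13 in 10 of 10 mice. Several receptors of this list also stand in the identity list, so the counts are not separate.

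Among receptor signal genes, 9 of 14 were higher in Tfr cells and 1 lower in 10 of 10 mice. Over all genes, 12.7% were higher and 8.70% lower. *Junb* was higher by 0.38, *Nr4a1* by 0.08 and *Nr4a3* by 0.03, while *Nr4a2* was higher in 2 of 10 mice. The lower gene was *Cd5*, a brake on receptor signals, at 1.01 in Tfr and 1.21 in other cells. Of 12 genes of the interleukin 2 and STAT5 axis, 6 were higher, among them the kinase *Pim1* by 0.39, *Il2rg* by 0.36, *Il2rb* by 0.25 and the feedback gene *Cish* by 0.11. *Bcl2*, named after its value was seen, was the 1 lower gene, by 0.08.

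Of 15 homing and adhesion genes, 9 were lower and 2 higher in Tfr cells in 10 of 10 mice. Over all genes, 8.70% were lower and 12.7% higher. *Klf2* was found in 7.72% of Tfr and 29.6% of other cells, and *S1pr1*, the sphingosine receptor for exit into lymph and blood, in 14.9% and 30.9%. *Ccr7* was found in 6.77% and 13.7%, and the integrin chain *Itga4* in 42.9% and 55.0%. The 2 higher genes, named after their values were seen, were the integrin chain *Itgb7*, by 0.20, and the chemokine receptor *Ccr6*, by 0.05.

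Interferon-stimulated genes moved both ways, with 5 of 20 higher and 6 lower in 10 of 10 mice, against 12.7% and 8.70% of all genes. *Ifi27l2a* was higher by 0.23 and *Isg15* by 0.07, while *Ifit1* was lower by 0.05 and *Ifit3* by 0.03. The comparison set holds the cluster that interferon-stimulated genes define. Of 16 glycolytic enzymes 5 were higher, with *Tpi1* at 0.22 and *Pkm* at 0.19, and 2 of the 8 heat shock genes past the filter were higher.

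Of the markers of other cell types, some were near 0 in Tfr cells, while several others were higher there than in the comparison cells. Of B cell genes, *Ms4a1* was found in 0.07% and *Cd79a* in 0.32%, the myeloid genes *Lyz2*, *Fcer1g*, *Tyrobp* and *C1qa* in 0.02% to 0.24%, and erythroid globin genes in at most 0.45%. *Cst3*, often used as a myeloid marker, was found in 50.7% of Tfr and 41.4% of other cells and was higher in Tfr cells in 10 of 10 mice. Of further B cell genes, *Cd79b* was found in 5.46% of Tfr and 2.11% of other cells, *Fcmr* in 5.39% and 1.07% and *Cd22* in 5.15% and 3.84%, the first pair higher in 10 of 10 mice and *Cd22* in 9. The summed level of the 5 B cell genes measured ran from 0.17 to 0.24 in WT and from 0.13 to 0.21 in 564Igi Tfr cells, against 0.06 to 0.09 and 0.06 to 0.10 in other cells, with no overlap between Tfr and other cells. *Cd74*, *Cd83* and MHC class II transcripts were higher in the Tfr cluster too, and the part of these markers in their differences was not tested. *Cd8b1*, of CD8 T cells, was found in 5.77% and 3.75%, and was also higher in 10 of 10 mice. Of the NK cell genes, *Klrb1c* was found in 5.34% of Tfr and 2.67% of other cells, *Nkg7* in 8.41% and 16.7%, and *Klrd1* in 0.05% and 0.43%. Of 3 naive T cell genes 2 were lower in Tfr cells in 10 of 10 mice, against 8.70% of all genes.

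The second question was whether Tfr cells of autoimmune chimeras differed from those of WT chimeras. The mice were the replicates, and p-values set a difference against the spread between them. Of 9994 genes tested with limma, 2 (0.0200%) passed both limits, an adjusted p (Benjamini-Hochberg) of less than 0.01 and a log2 difference above 0.2, and were higher in 564Igi chimeras. At an adjusted p below 0.05 with no limit on the difference 9 genes (0.0901%) passed, and 350 had an unadjusted p below 0.05. Without its trend option, or without the filter on low genes, limma called 0 genes. The 564Igi mice all exceeded the WT mice for 38 genes (0.380%) and all fell below them for 33 (0.330%). For a gene without any difference, separation in either direction has an exact permutation probability of 0.00794. These shares together were no larger than that.

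*Ly6a*, on chromosome 15 from 74994877 to 74998031 (minus strand, GRCm38), encodes the GPI-anchored surface protein Sca-1, which interferons induce in T cells. It was found in 37.5%, 26.7%, 64.1%, 45.9% and 46.2% of WT Tfr cells and in 77.1%, 66.8%, 71.1%, 77.0% and 75.0% of 564Igi Tfr cells. WT mouse 14 came nearest to the 564Igi mice, and the groups did not overlap. Its level was 0.93 ± 0.34 in WT and 1.78 ± 0.15 in 564Igi chimeras (SD, n = 5 each), a difference of 0.85 (standard error 0.12, limma adjusted p = 0.00162). Leaving out WT mouse 11 raised the limma adjusted p to 0.0141 and leaving out 564Igi mouse 24 to 0.0219, and *Ly6a* was then not called. It was not called on summed counts per 10000 either, at a difference of 0.99 (limma adjusted p = 0.0291).

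Set against the other cells of the same mouse, *Ly6a* was lower in WT Tfr cells and close to level in 564Igi Tfr cells. The difference between Tfr and other cells was -0.73, -0.77, -0.01, -0.53 and -0.56 in the WT and -0.01, 0.22, -0.01, -0.10 and 0.03 in the 564Igi chimeras. WT mouse 14 lay among the 564Igi mice, and the other 4 WT mice lay below them all. In the other cells *Ly6a* was at 1.45 in WT and 1.75 in 564Igi chimeras, a difference of 0.30 (two-sided exact permutation p = 0.0476). The excess of the Tfr difference over that of other cells, 0.55, had a two-sided exact permutation p of 0.0238 for this gene alone. It did not pass limma's adjustment over 10199 genes (adjusted p = 0.435).

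*Gm42031*, a lincRNA in the GENCODE annotation, lies on chromosome 8 from 85125872 to 85132289 (minus strand, GRCm38). It was found in 29.5%, 40.8%, 50.9%, 42.1% and 43.9% of WT Tfr cells and in 87.1%, 83.9%, 88.5%, 97.7% and 97.9% of 564Igi Tfr cells. The groups were far apart, and mice 24 and 34 were the highest. The level was 0.58 ± 0.13 in WT and 2.34 ± 0.59 in 564Igi chimeras (SD, n = 5 each), a difference of 1.76 (standard error 0.18, limma adjusted p = 2.95e-05). The difference in other cells was 1.92, and its excess in Tfr cells was -0.16 (two-sided exact permutation p = 0.00794, limma adjusted p = 0.435).

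When the condition difference in Tfr cells was set against that in the other cells of the same mice, limma called 0 of 10199 genes (0%). The smallest adjusted p was 0.411, and 755 genes had an unadjusted p below 0.05.

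Transcripts of MHC class II, which presents peptides to CD4+ T cells, were rare in Tfr cells and more frequent in 564Igi chimeras. *H2-Ab1* was found in 0.50%, 0.86%, 1.47%, 1.29% and 0.98% of WT Tfr cells and in 7.28%, 3.39%, 6.34%, 3.32% and 3.03% of 564Igi Tfr cells. Mice 13 and 21 were the highest, and no WT mouse reached the lowest 564Igi mouse. *H2-Aa* was found in 0.98% and 3.95% and *H2-Eb1* in 0.77% and 3.42% of Tfr cells on average in WT and 564Igi chimeras. The 3 genes lie on chromosome 17, and their limma adjusted p ran from 0.0116 for *H2-Ab1* to 0.0151, above the 0.01 needed for a call. Their differences on the log2 scale, 0.04 to 0.05, were below 0.2 as well. These are differences of means over all Tfr cells, most without the transcript, and not fold changes. The mean level of *H2-Ab1* was 0.013 in WT and 0.065 in 564Igi Tfr cells.

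In the other cells *H2-Ab1* was found in 0.33% to 0.46% in WT and in 0.60% to 1.53% in 564Igi chimeras. *Cd74* was found in 46.5% to 58.4% of WT and 52.7% to 65.0% of 564Igi Tfr cells, which overlapped, with levels of 0.92 ± 0.08 and 1.21 ± 0.14 (SD, n = 5 each) and a difference of 0.29 (limma adjusted p = 0.103). All 5 genes of the list past the filter had a higher mean in 564Igi chimeras, against 41.9% of all genes tested. For *H2-Ab1*, *H2-Aa* and *H2-Eb1* the 564Igi mice all lay above the WT mice, against 0.380% of all genes tested. These neighbouring genes are not separate results. The summed level of the B cell markers in Tfr cells, given above, overlapped between conditions. *Ms4a1* and *Cd79a* were near 0 in both, while *Cd79b*, *Fcmr* and *Cd22* were more frequent in Tfr cells, as given above. The part of such markers in the MHC class II values was not tested.

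**Figure D3:**
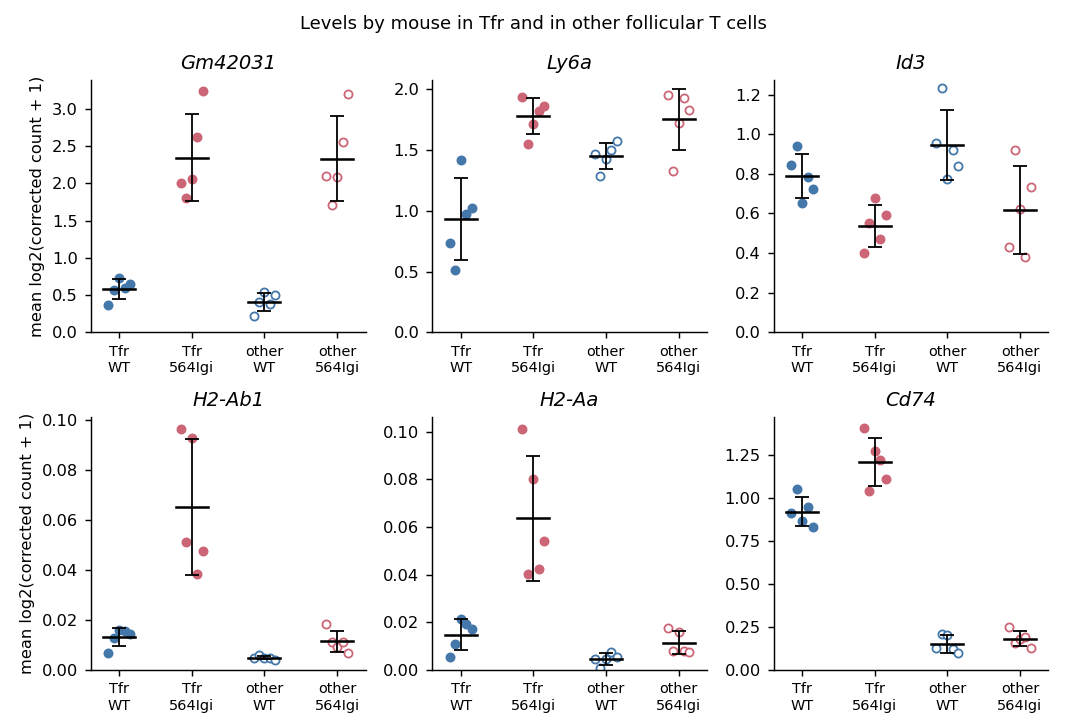
Levels (mean log2(corrected count + 1)) by mouse in Tfr cells (filled points) and other follicular T cells (open points) of WT (blue) and 564Igi (red) chimeras for 6 genes, each on its own axis. Black lines and bars are the mean and SD of 5 mice. In Tfr cells the 564Igi points of *Gm42031*, *Ly6a*, *H2-Ab1* and *H2-Aa* lie above all WT points, while those of *Id3* and *Cd74* overlap with WT.

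*Id3* was found in 49.9%, 52.2%, 40.8%, 45.8% and 43.4% of WT Tfr cells and in 26.9%, 35.7%, 39.8%, 30.4% and 36.8% of 564Igi Tfr cells. On this measure every 564Igi mouse lay below every WT mouse, while the levels overlapped in 564Igi mouse 21 and WT mouse 14. The level was 0.79 ± 0.11 and 0.54 ± 0.11 (SD, n = 5 each), a difference of -0.25 (standard error 0.05, limma adjusted p = 0.0757, and by two-sided exact permutation p = 0.0159). *Id3* was called with the labelled sex as a covariate, at -0.27 (limma adjusted p = 0.00729), and without WT mouse 14, at -0.28 (limma adjusted p = 0.00880), while on summed counts the limma adjusted p was 0.112. In other cells the difference was -0.33. *Foxp3* differed by -0.0034 between conditions (two-sided exact permutation p = 0.952, limma adjusted p = 0.9998), *Ikzf2* by -0.15 and *Tigit* by 0.10, with two-sided exact permutation p values of 0.183 and 0.246 for the last pair. All 4 markers were found together in 18.9% ± 2.64 of WT and 13.1% ± 2.32 of 564Igi Tfr cells (SD, n = 5 each, two-sided exact permutation p = 0.00794), a count that includes *Id3*.

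Of the other genes at an adjusted p below 0.05, 4 are named here after their values were seen or as members of the lowest 10. *Mt1*, a metallothionein, was found in 2.40% of Tfr cells from WT and 8.23% from 564Igi chimeras (limma adjusted p = 0.000222). *Derl3*, of endoplasmic reticulum degradation, was found in 0.91% and 2.83% (limma adjusted p = 0.00164). *Cd86*, a costimulatory ligand, was found in 2.72% and 0.86% (limma adjusted p = 0.0151), and *D830030K20Rik* in 4.97% and 1.898% (limma adjusted p = 0.0103). All 4 had differences smaller than 0.2 on the log2 scale and groups that did not overlap. On summed counts per 10000, the *Mt1* difference was 0.41 (limma adjusted p = 0.000182) and the gene passed both limits.

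The 10 largest higher genes without overlap were *Gm42031*, *Ly6a*, the proteasome genes *Psme2* and *Psmb8*, the ribosomal genes *Rpsa*, *Rpl10* and *Rpl7a*, *Tpt1*, the elongation factor *Eef1a1* and *Pdia6*. Apart from the first pair, their differences lay between 0.13 and 0.20 and their limma adjusted p ran from 0.0733 (*Tpt1*) to 0.9998 (*Psmb8* and *Rpl7a*). The median share of ribosomal protein transcripts in Tfr cells was 9.18% and 9.51% for small and 11.2% and 11.7% for large subunit genes in WT and 564Igi chimeras, with overlap, and its part in these results was not tested. The 10 largest lower genes without overlap were *Gata3*, *Ccr6*, *D830030K20Rik*, *Gm35363*, *Lta*, *Capn3*, *Rfesd*, *Bach2*, *AI987944* and *Cd86*. In both directions, lack of overlap was no more frequent over all genes than the exact probability given above. *Ccr6* was found in 6.62% of Tfr cells from WT and 3.19% from 564Igi chimeras (limma adjusted p = 0.0963). *Bach2*, a repressor that holds back effector genes, was found in 3.70% and 1.71% (limma adjusted p = 0.0968).

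Among the lists, the members leaned one way in several and none other than *Ly6a* was called. The background is that 41.9% of the genes tested had a positive difference and that the median difference was -0.0016. Of 19 interferon-stimulated genes 18 were positive, with a median of 0.02. Of 16 glycolytic enzymes 14 were positive with a median of 0.10, the largest being *Aldoa* and *Pkm* at 0.25 (two-sided exact permutation p = 0.0714 and 0.0397, limma adjusted p = 0.9998 for both). All 8 heat shock genes were positive with a median of 0.03, and 13 of 14 receptor signal genes with a median of 0.02, where *Junb* stood at 0.10 and *Nr4a1* at 0.07.

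Of 15 homing and adhesion genes 12 were negative, with a median of -0.03. *Itgb1* differed by -0.15 (two-sided exact permutation p = 0.0317, limma adjusted p = 0.537), *Thy1* by -0.12 and *Il7r* by -0.04. The identity list was even, with 11 of 20 positive and a median of 0.004, as was that of suppressive molecules, with 6 of 13. There *Lag3* differed by 0.18 (two-sided exact permutation p = 0.183, limma adjusted p = 0.9998) and *Ebi3*, a subunit of interleukins 27 and 35, by -0.07 (limma adjusted p = 0.356). Of the helper genes 7 of 10 were positive, *Il21* at 0.03 with all 564Igi mice above all WT mice (limma adjusted p = 0.679), while *Tnfsf11* (RANK ligand) differed by -0.13 (limma adjusted p = 0.103). Of the follicular programme 11 of 21 were positive, of the NF-kB list 12 of 16 and of the interleukin 2 axis 10 of 12. Genes within a list share regulation and mice, and these shares carry no test.

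**Figure D4:**
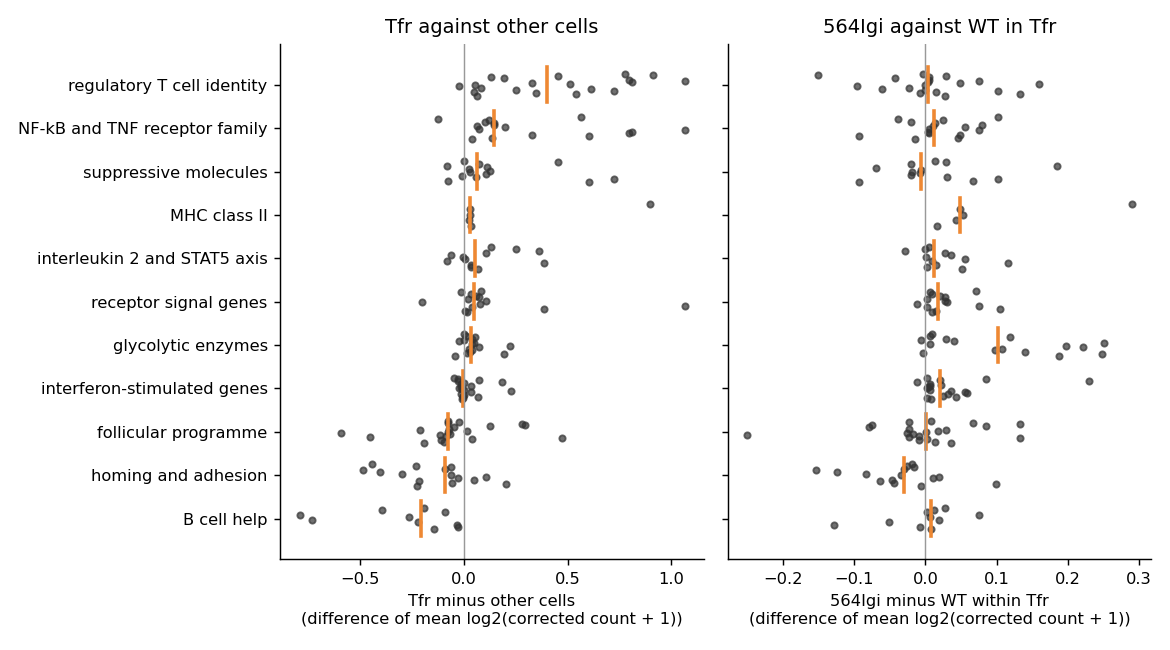
Members of 11 gene lists, each point a gene, as the mean difference between Tfr and other cells of the same mouse (left) and as the difference between 564Igi and WT chimeras within Tfr cells (right), both on the log2 scale. Orange lines are list medians, which on the left run from 0.40 for regulatory T cell identity to -0.21 for B cell help. On the right they lie between -0.03 and 0.10.

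The T cell receptors had not entered the clustering, since the authors removed receptor genes beforehand, so they could be compared between Tfr and other cells. A paired TCR was read for 8780 Tfr and 12625 other cells. V gene shares were taken with each clonotype once per mouse and set, so that large clones did not count more.

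The V segment TRBV12-1, on chromosome 6 from 41113550 to 41114067 (plus strand, GRCm38), was used more by Tfr clonotypes in 10 of 10 mice. It served 3.98%, 8.08%, 12.1%, 9.22% and 6.27% of Tfr clonotypes in the WT and 10.3%, 5.83%, 7.46%, 7.30% and 8.81% in the 564Igi chimeras. In the other cells of the same mice it served 1.92% to 3.61%. WT mouse 11 had the smallest gap, 3.98% against 3.18%. The means were 7.94% ± 2.34 and 2.83% ± 0.579 (SD, n = 10 mice, exact two-sided sign flips p = 0.00195). Adjusted over the 63 V genes tested, p was 0.123, the lowest that a single gene can reach with 10 mice, so that this design could not call one gene by itself. No V gene (0%) passed 0.05 after adjustment, 11 had an unadjusted exact p below 0.05, and TRBV12-1 was the 1 of 63 (1.59%) that was higher in 10 of 10 mice.

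The next smallest p-values belonged to TRAV16N, higher in Tfr clonotypes at 1.87% against 1.24%, TRAV6-5, lower at 0.98% against 1.75%, and TRBV12-2, higher at 3.63% against 2.39% (exact two-sided sign flips p = 0.0117 each, adjusted 0.138). TRAV genes with near-identical copies can be read as one another, and TRBV12-2 was in part listed joined with TRBV13-2, so these shares are uncertain.

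The CDR3 alpha loop was shorter in Tfr clonotypes in 10 of 10 mice. Its mean length was 13.5 ± 0.0915 amino acids in Tfr and 13.7 ± 0.0778 in other cells (SD, n = 10), a difference of -0.137 that ran from -0.332 in WT mouse 14 to -0.0189 in 564Igi mouse 34 (exact two-sided sign flips p = 0.00195). Counting each cell once, the difference was -0.140 (exact p = 0.0781). The CDR3 beta loop differed by -0.0846 amino acids (exact p = 0.0898) and the hydropathy of its center by 0.0198 on the Kyte-Doolittle scale (exact p = 0.225), neither beyond the spread between mice.

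Tfr cells held more distinct clonotypes at equal cell number in 8 of 10 mice. In 200 Tfr cells 147 ± 12.9 clonotypes were expected, and in 200 other cells 139 ± 12.9 (SD, n = 10), a difference of 8.78 (exact two-sided sign flips p = 0.0430). 564Igi mouse 17 went the other way, with 126 against 141. Leaving out any of 7 mice in turn gave an exact p above 0.05. With a mouse left out the difference itself stayed between 6.98 and 11.5. Without mice 34 and 36 it was 5.85 (exact p = 0.172). Cells in clonotypes of 2 or more made up 55.9% of Tfr and 64.9% of other cells, and fewer in Tfr cells in 9 of 10 mice. This share depends on the number of cells, which was lower for Tfr cells in 9 of 10 mice, and its part was not tested.

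**Figure D5:**
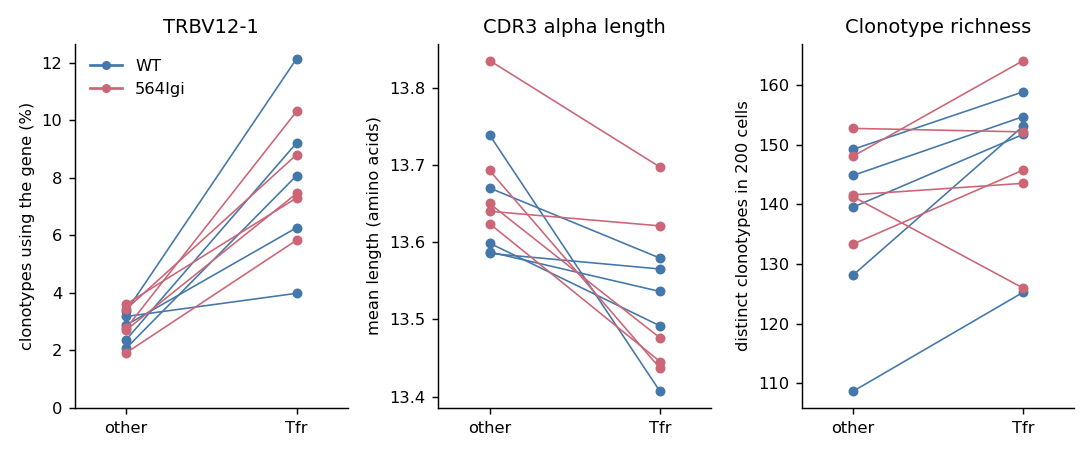
Share of clonotypes that use TRBV12-1 (%), mean CDR3 alpha length (amino acids, axis not from 0) and expected distinct clonotypes in 200 cells (axis not from 0), in other and Tfr cells of each mouse, with WT in blue and 564Igi in red. All 10 lines rise for TRBV12-1 and fall for CDR3 alpha length, and 8 of 10 rise for distinct clonotypes.

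Between conditions, neither the richness of Tfr clonotypes nor the share of the largest one differed beyond the spread between mice. V gene use of Tfr cells was not compared between conditions. Expected distinct clonotypes in 200 Tfr cells were 159, 125, 155, 152 and 153 in the WT and 152, 126, 146, 144 and 164 in the 564Igi chimeras, with means of 149 ± 13.4 and 146 ± 13.9 (SD, n = 5 each, two-sided exact permutation p = 0.754). One low mouse stood in each group. The largest Tfr clonotype took 3.78% ± 0.920 of Tfr cells in WT and 6.54% ± 4.61 in 564Igi chimeras (two-sided exact permutation p = 0.0794), with 14.8% in mouse 17. That clone, of TRAV4-3 and TRBV10, had 179 cells, of which 139 were Tfr.

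Part of the Tfr cells belonged to clonotypes that reached into other clusters. Each cell counts here, so large clones weigh more, and a single cell elsewhere is enough. The study reports that clonotypes were mostly confined to a single cluster. The part of doublets and of cluster assignment in this sharing was not tested. Of Tfr cells, 34.7% ± 7.60 in WT and 31.9% ± 9.55 in 564Igi chimeras had a clonotype that also held a cell of another cluster (SD, n = 5 each, two-sided exact permutation p = 0.563). Of 746 clonotypes with at least 5 cells, 153 were at least 90% Tfr, 311 at most 10% Tfr and 282 lay between. The largest Tfr clonotype of a mouse was between 69.6% and 100% Tfr.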

How the data were processed

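Splenic CD4+CXCR5+PD-1+ cells of 10 chimeras were profiled by the authors with 10x gene expression and TCR libraries, 1 of each per mouse, and grouped by the labelled chimera condition. Per the labels, Cell Ranger 4.0.0, Seurat 3.1.4 and GRCm38 (mm10) were used. The deposited expression values are natural logs of UMI counts plus 1 after the authors' sctransform normalization of each condition alone, regressing out heat shock score and other covariates, and after removal of receptor genes. Corrected counts are not raw, and count models were not used. The authors also deposited, per cell, raw UMI counts, the percent of UMIs in mitochondrial and ribosomal genes, cell cycle and heat shock scores, and cluster names. No doublet removal is named in the sources used here and none was run, and free RNA was not removed.

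Values were converted to log2(corrected count + 1) and averaged over Tfr cells, and over other cells, of each mouse. Genes seen in 1% or more of cells in 5 or more mice were tested with limma 3.58.1 (R 4.3.3, trend option), after a check on simulated data. Calls needed an adjusted p (Benjamini-Hochberg) of less than 0.01 and a log2 difference above 0.2. Single values were tested by exact permutation of 5 against 5 mice (smallest p 0.00794) or exact sign flips over 10 mice (smallest p 0.00195), both two-sided. Clonotypes were pairs of CDR3 amino acid sequences, and distinct clonotypes in 200 cells were computed from clone sizes. Python 3.11.15, numpy 2.4.6, pandas 2.3.3, scipy 1.17.1 and matplotlib 3.10.9 were used. Gene positions are those of GENCODE vM21 on GRCm38.

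The 12 highest and lowest genes within mice, called genes, the 10 largest non-overlapping genes each way, genes the study names, list members and the 4 markers were named. The markers, lists and tests were chosen with earlier results of these data known. Depth limits what can be found: UMI totals per mouse in Tfr cells differed about as much as cell numbers, and detection refers to UMIs. Alternatives covered limma's trend, the filter, thresholds, covariates, summed counts, equal cell numbers (392 a mouse), cells with *Foxp3* found, other definitions in the TCR data, and leaving out each mouse or mice 34 and 36. Those for Tfr against other cells, for TRBV12-1 and for marker shares were chosen after seeing the data. Results for a few single genes of the lists are not reported here.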

Additional observations from a re-analysis of the deposited data

Results flagged for a closer look

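Within groups of 5 mice, a mouse was looked at again when its gap to the nearest other took up most of the group's range. Of 37 groups examined 5 were found, and chance gives about 1 in 20. The Tfr share of cells was 56.4% in WT mouse 12, against 37.6% to 42.0% in the other WT mice, and 48.1% in 564Igi mouse 13, against 35.0% to 37.9% in the others. Expected distinct clonotypes in 200 Tfr cells were 125 in WT mouse 12, against 152 to 159. In 564Igi mouse 17 the level of *Thy1* in Tfr cells was 0.81, against 0.50 to 0.58. In the same mouse 48.2% of Tfr cells had a clonotype that also held a cell of another cluster, against 24.2% to 31.2%.

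For both called genes, the difference between conditions was not the same in Tfr as in other cells by an exact permutation test of each gene alone. It was larger in Tfr cells by 0.55 for *Ly6a* (two-sided exact permutation p = 0.0238) and smaller by 0.16, at -0.16, for *Gm42031* (two-sided exact permutation p = 0.00794). Neither passed limma's adjustment over all genes (adjusted p = 0.435).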

How the results depend on the processing

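Limma without the trend, or without the filter on low genes, called 0 genes between conditions in Tfr cells, where the 2 genes had adjusted p values of 0.168 and 0.0383 (*Gm42031*) and 0.495 and 0.185 (*Ly6a*). At an adjusted p below 0.05 with no limit on the difference 9 passed. At the limits of the report, leaving out a mouse gave 1 to 3 calls in place of 2 (1 without WT mouse 11 or 564Igi mouse 24). Summed counts again called 2 genes, of which *Mt1* took the place of *Ly6a*, and sex as a covariate called *Id3* as well. Of the 10 genes that the study names, 5 had an exact p below 0.05. This was 3 on summed counts, 2 without mice 34 and 36, and 3 to 9 with a mouse left out. On summed counts, 492 genes rather than 121 differed by over 0.2 between Tfr and other cells in 10 of 10 mice.

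The condition difference in distinct Tfr clonotypes (-2.45) was reversed at 0.0767 without WT mouse 11 and at 2.63 without 564Igi mouse 17 (range with a mouse left out -8.31 to 2.63). The Tfr excess in distinct clonotypes was 6.98 to 11.5 with a mouse left out and 5.85 without mice 34 and 36. The chance that a pair of cells shares a clonotype differed by -0.189 percentage points (exact p = 0.545). CDR3 beta length differed by -0.107 to -0.0504 with a mouse left out, and CDR3 alpha length by -0.140 counting each cell once. The condition difference in the share of Tfr cells whose clonotype reached other clusters ran from -6.89 to 0.169 with a mouse left out. The condition differences of *Foxp3* were reversed for its level (-0.0402 to 0.0306 with a mouse left out) and its share of cells (-2.51 to 0.982). The cause of these changes was not tested. No paired analysis was possible because the replicate numbers were given in accession order and pair no mice. Rare transcripts such as those of MHC class II rest on few cells a mouse.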
